A study of Mus musculus with 12 samples.

Results

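Thrombospondin-1, encoded by Thbs1, was followed together with 9 genes of the latent TGF-β axis in Lin-cKit+ (LK) bone marrow cells, a fraction enriched for hematopoietic stem and progenitor cells. The 10 genes are Thbs1, its receptors Cd36 and Cd47, the ligands Tgfb1, Tgfb2, and Tgfb3, the receptors Tgfbr1, Tgfbr2, and Tgfbr3, and the superfamily ligand Gdf3, among 55291 genes in the count table. They were listed by name. Thbs1 was chosen by its counts, which are low in all 3 mutant genotypes, and Gdf3 by its counts in Asxl1Y588XTg cells, which lie below WT, so those differences are given as a description without a test. A filter on low counts kept 15825 genes, including 9 of the 10. Tgfb2 did not pass it.

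The libraries came from 12 C57BL/6 mice aged 12 months, 3 of each of 4 genotypes. WT mice carried neither change. Kdm6bΔ/+ mice had lost 1 allele of Kdm6b, an H3K27 demethylase, after Mx1Cre was induced with pI:pC. Asxl1Y588XTg mice carried a transgene for a truncated form of the chromatin regulator Asxl1, and Asxl1Y588XTg Kdm6bΔ/+ mice carried both. The Mx1 promoter responds to interferon, and Mx1Cre acts in most blood cells and in other tissues. The promoter of the transgene, the sex of the mice, and whether the mice without the floxed allele received pI:pC are not given in the sources used here. The comparisons ask how the transgene and the loss of 1 Kdm6b allele, alone and together, change the expression of these genes.

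Thrombospondin-1 is a secreted matrix glycoprotein made by platelets, megakaryocytes, and monocytes, among other cells. It binds CD36 and CD47 on cell surfaces, and it can release active TGF-β from the latent complex in which TGF-β is secreted. Active TGF-β binds the type II receptor TGFBR2, which recruits and phosphorylates the type I receptor TGFBR1, and Smad2 and Smad3 carry the signal to the nucleus. TGFBR3, or betaglycan, presents the ligand to these receptors. In bone marrow, TGF-β is known for restraining the cycling of hematopoietic stem cells.

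The libraries held 14451522 to 23482563 counts each (median 17125384.5). Kdm6b, the deleted gene, had normalized counts of 1622, 1529, and 1346 in Kdm6bΔ/+ libraries and 2142, 2372, and 1869 in WT libraries. It had 1649, 1873, and 1909 in Asxl1Y588XTg Kdm6bΔ/+ and 2270.4, 2303, and 2187 in Asxl1Y588XTg libraries, so each genotype with the deletion lay below its counterpart without it. Neither difference passed the test (log2 fold change −0.51, adjusted p = 0.279 in edgeR, and −0.30, adjusted p = 0.0717 in edgeR). Asxl1 overlapped between the genotypes with and without the transgene. Y-linked transcripts (Ddx3y above 10 counts) were present in 0 of 3 WT, 2 of 3 Kdm6bΔ/+ (replicates 1 and 3), 1 of 3 Asxl1Y588XTg (replicate 2), and 3 of 3 Asxl1Y588XTg Kdm6bΔ/+ libraries, while Xist had 10316 to 16906 counts in the libraries without them and 13 to 26 in the libraries with them. Sex and genotype therefore cannot be told apart between WT and Asxl1Y588XTg Kdm6bΔ/+. WT replicate 2 differed most from the other replicates of its genotype, with a chi-square per gene of 32.1 and 28.2 against 7.76 to 19.0 for all other pairs of replicates. Nnt, whose expression differs between C57BL/6 substrains and which was chosen after its values were seen, had 1297 to 1308 normalized counts in WT and 1139 to 1249.9 in Asxl1Y588XTg libraries, against 2167 to 3360 in Kdm6bΔ/+ and 1960 to 2891 in Asxl1Y588XTg Kdm6bΔ/+ libraries.

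Progenitor transcripts matched the label of the cells, with a mean of 57.7 RPKM (reads per kilobase of exon, scaled by library size) for the progenitor factor Myb and 40.2 RPKM for Kit. Transcripts of maturing cells were present too. S100a9, a granule-cytosol protein of neutrophils, reached 30291 RPKM, and Lyz2, a lysozyme of myeloid cells, reached 3527 RPKM. In such bulk samples, fewer cells of a type and less RNA per cell cannot be told apart.

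Thbs1 lies on chromosome 2 of mm10, at positions 118111876 to 118127133 on the forward strand. Its 3 WT libraries held 2368, 3050.0, and 2116 normalized counts. The 3 Kdm6bΔ/+ libraries held 726, 881, and 386. The 3 Asxl1Y588XTg libraries held 746, 755, and 579. The 3 Asxl1Y588XTg Kdm6bΔ/+ libraries held 835, 470.0, and 1241. All 9 mutant libraries therefore lay below all 3 WT libraries, with the highest mutant library, a double mutant, still clear of the lowest WT library. The antisense gene Gm29233 overlaps Thbs1 in its exons, so the counts of the pair cannot be separated if strand was not used in counting.

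The mean Thbs1 level was 2511 ± 483 (SD, n = 3) in WT, 665 ± 253 in Kdm6bΔ/+, 694 ± 98.9 in Asxl1Y588XTg, and 849 ± 386 in Asxl1Y588XTg Kdm6bΔ/+ cells. Against WT, the fitted log2 fold change was −1.86 (SE 0.15, 95% interval −2.20 to −1.52) in Asxl1Y588XTg, −1.92 (SE 0.33, −2.74 to −1.10) in Kdm6bΔ/+, and −1.55 (SE 0.35, −2.41 to −0.69) in Asxl1Y588XTg Kdm6bΔ/+ cells. These 3 values share the same WT libraries, and without WT replicate 2 they were −1.69, −1.75, and −1.39. Among 9893 genes with a mean of at least 100 normalized counts, Thbs1 had the largest ratio of the WT mean to the highest mutant mean, 2.96, and Gdf3 had the next, 2.45. Xist followed at 1.96, and the gene after it, Pcbd2, was at 1.53. This order restates how Thbs1 was chosen. Of all genes tested, 66 (0.417%) had every mutant library below every WT library.

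**Figure D1:**
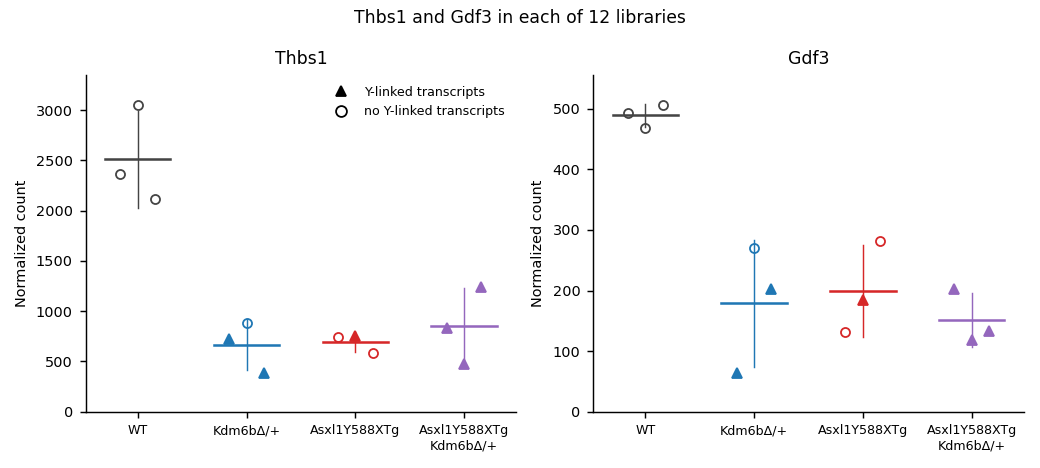
Normalized counts (y axis) of Thbs1 and Gdf3 in the 3 libraries of each genotype (x axis), with horizontal lines at the means, vertical lines of 1 SD, triangles for libraries with Y-linked transcripts, and open circles for libraries without them. WT libraries lie between 2116 and 3050.0 for Thbs1 and between 469 and 506 for Gdf3, above every mutant library.

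The 3 mutant genotypes overlapped one another in Thbs1. The log2 fold change was 0.31 (SE 0.39, 95% interval −0.72 to 1.34) between Asxl1Y588XTg Kdm6bΔ/+ and Asxl1Y588XTg cells, and did not pass the quasi-likelihood test of edgeR (adjusted p = 0.780, by the method of Benjamini and Hochberg, as for all adjusted p-values here). Between Asxl1Y588XTg Kdm6bΔ/+ and Kdm6bΔ/+ cells it was 0.36 (SE 0.51, −1.01 to 1.72), with an adjusted p of 0.820 in the same test. Both intervals include differences of more than 1 log2 unit, and the libraries of the compared genotypes overlapped. The spread was widest in the double mutant, whose coefficient of variation was 45.4%, against 14.3% in Asxl1Y588XTg. Without the highest double-mutant library (replicate 3), both differences had the opposite sign, at −0.07 and −0.02. The log2 fold change with the Kdm6b deletion was thus −1.92 on the WT background and 0.31 on the transgenic background, a signed difference of 2.21 (SE 0.54, 95% interval 0.98 to 3.44). That difference follows from the choice of a gene low in each mutant and is not tested.

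WT was also highest among the libraries without Y-linked transcripts, which include none of Asxl1Y588XTg Kdm6bΔ/+. In these, Thbs1 had 2116 to 3050.0 normalized counts in 3 WT libraries, 579 and 746 in 2 Asxl1Y588XTg libraries, and 881 in 1 Kdm6bΔ/+ library. With a term for Y-linked transcripts in a fit of all 4 genotypes, the log2 fold change against WT was −1.77 in Asxl1Y588XTg, −1.78 in Kdm6bΔ/+, and −1.32 in Asxl1Y588XTg Kdm6bΔ/+ cells. Nnt lay just below WT in Asxl1Y588XTg cells and above it in both genotypes with the Kdm6b deletion, while Thbs1 was chosen as low in all 3. The part of sex or of strain background in the Thbs1 values was not tested.

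The cell types that make thrombospondin-1 were followed by marker genes. The summed normalized counts of 22 monocyte and macrophage markers ranged from 105970.3 to 141696 in WT, 111527 to 125163 in Kdm6bΔ/+, 100341 to 131902 in Asxl1Y588XTg, and 103730.0 to 125636 in Asxl1Y588XTg Kdm6bΔ/+ libraries, so all genotypes overlapped. None of the 21 tested markers of this list passed the test in any mutant against WT. The sums of 21 megakaryocyte and platelet markers were 14681 to 15157 in WT, 13560.0 to 14376 in Kdm6bΔ/+, 19462 to 31239 in Asxl1Y588XTg, and 16777 to 18965 in Asxl1Y588XTg Kdm6bΔ/+ libraries. Of 19 tested, Mmrn1 and Selp rose in Asxl1Y588XTg (1.61% of all genes called) and Ppbp rose in Asxl1Y588XTg Kdm6bΔ/+ cells (0.215%) against WT. These sums thus lay above WT in both genotypes with the transgene and below it in Kdm6bΔ/+, while Thbs1 lay below WT in all 3. No marker of either list was at 0 in all libraries. The part of these cell types in the Thbs1 values was not tested.

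Gdf3 encodes a TGF-β superfamily ligand known from early embryos that signals through activin-type receptors. It lies on chromosome 6, at positions 122605403 to 122610087 on the reverse strand. WT libraries held 493, 469, and 506 normalized counts, and Asxl1Y588XTg libraries held 132, 185, and 282. Kdm6bΔ/+ libraries held 64.1, 269.7, and 202, and Asxl1Y588XTg Kdm6bΔ/+ libraries held 202, 119, and 133. As for Thbs1, no mutant library reached the lowest WT library. The 3 WT libraries were close together, with a coefficient of variation of 3.87%, against 58.6% in Kdm6bΔ/+ cells.

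In Asxl1Y588XTg cells, the contrast by which Gdf3 was chosen, its log2 fold change against WT was −1.30 (SE 0.24, 95% interval −1.83 to −0.76). In Asxl1Y588XTg Kdm6bΔ/+ cells it was −1.67 (SE 0.19, 95% interval −2.09 to −1.25), a 3.18-fold difference, and in Kdm6bΔ/+ cells −1.44 (SE 0.45, −2.52 to −0.36). Both are set against the WT libraries on which the choice of Gdf3 rested, so their p-values are not independent of it. The edgeR fit called the first (adjusted p = 0.00478) and not the second. That call was lost in the fit of all 4 genotypes (log2 fold change −1.68, adjusted p = 0.308 in edgeR), with Y-linked transcripts added to it as a term (−1.10, adjusted p = 0.980 in edgeR), and without WT replicate 3 (−1.64, adjusted p = 0.0688 in edgeR). The mutants overlapped one another. Gdf3 differed by −0.38 log2 units (SE 0.31) between Asxl1Y588XTg Kdm6bΔ/+ and Asxl1Y588XTg cells and by −0.24 (SE 0.54) between Asxl1Y588XTg Kdm6bΔ/+ and Kdm6bΔ/+ cells. In libraries without Y-linked transcripts, Gdf3 had 469 to 506 normalized counts in WT, 132 and 282 in Asxl1Y588XTg, and 269.7 in Kdm6bΔ/+.

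Although both genes were low in every mutant library, their levels were not ordered alike among the mutants. Over the 9 mutant libraries, Pearson's r between log2 Thbs1 and log2 Gdf3 levels scaled by library size was −0.08. The lowest Gdf3 library, Kdm6bΔ/+ replicate 1, was intermediate for Thbs1, and the highest Thbs1 library of the mutants, Asxl1Y588XTg Kdm6bΔ/+ replicate 3, was among the 4 lowest for Gdf3.

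Of the receptors of thrombospondin-1, Cd36 is a scavenger receptor and fatty acid transporter. It was low throughout, with raw counts of 41 to 170. WT libraries held 156, 107, and 110.2 normalized counts, and Asxl1Y588XTg libraries held 72.4, 50.3, and 68.9, so these genotypes did not overlap. Kdm6bΔ/+ libraries, at 66.6, 113, and 42.6, and Asxl1Y588XTg Kdm6bΔ/+ libraries, at 111, 97.0, and 75.3, overlapped with WT. The log2 fold change in Asxl1Y588XTg against WT was −0.96 (SE 0.27, 95% interval −1.56 to −0.37), which did not pass the test (edgeR adjusted p = 0.153). It was −0.74 (SE 0.33) in Kdm6bΔ/+ and −0.38 (SE 0.24) in Asxl1Y588XTg Kdm6bΔ/+ cells against WT, and with Y-linked transcripts as a term it was −0.31 and 0.39. All 3 Asxl1Y588XTg Kdm6bΔ/+ libraries lay above all 3 Asxl1Y588XTg libraries, by 0.58 log2 units (SE 0.23), with an adjusted p of 0.258 in the edgeR test.

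Cd47, which is also the surface signal that restrains phagocytes through SIRPA, was the most abundant of the 10 genes. Its normalized counts ranged from 15030.3 to 17949.6 over all 12 libraries, and the coefficient of variation over the 12 was 5.61%. All pairwise comparisons of Cd47 gave log2 fold changes between −0.09 and 0.06. The 95% interval in Asxl1Y588XTg against WT was −0.20 to 0.17, which excludes a change of the size seen for Thbs1.

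**Figure D2:**
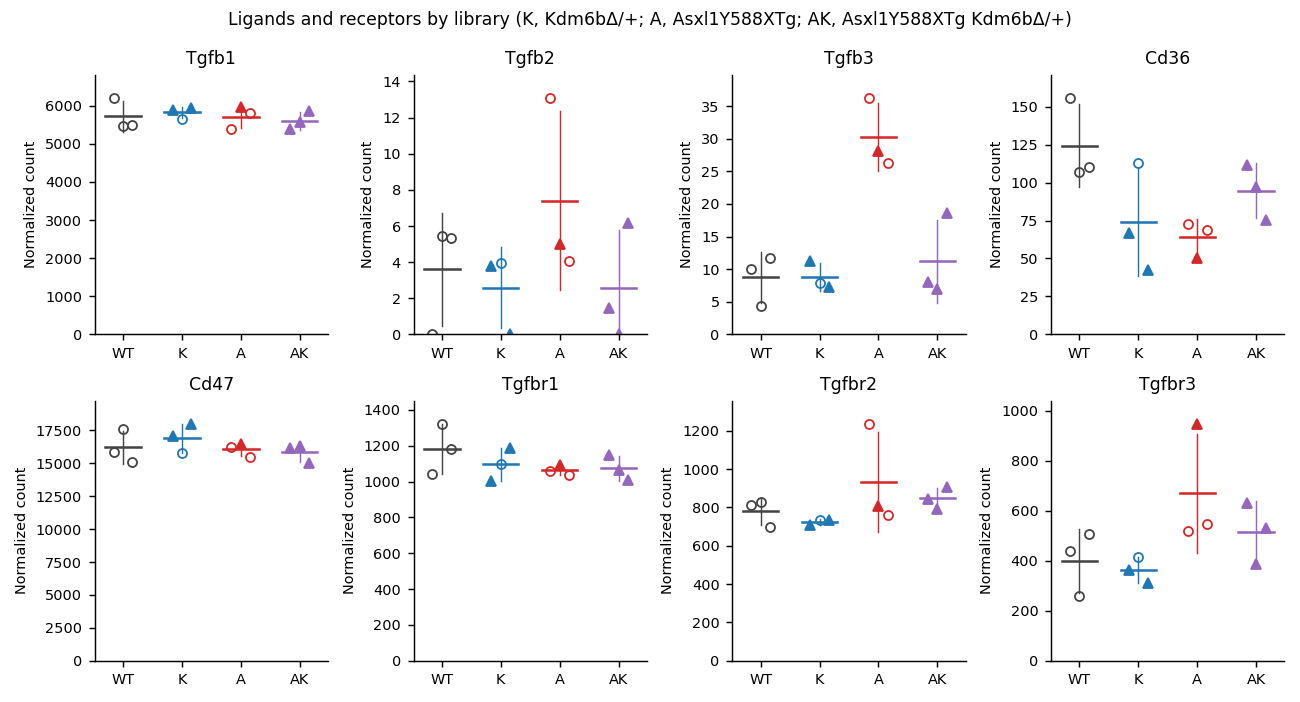
Normalized counts (y axes, each from 0) of the 8 other genes in the 3 libraries of each genotype (x axis), with lines at the means, vertical lines of 1 SD, triangles for libraries with Y-linked transcripts, and open circles for those without. Tgfb1 and Cd47 are level across genotypes, and the 3 Asxl1Y588XTg libraries of Tgfb3 (26.3 to 36.2) lie above all others (4.37 to 18.6).

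Tgfb1, the main TGF-β ligand of blood cells, was the most abundant ligand and the steadiest gene of the 10. Its normalized counts ranged from 5378 to 6199 over the 12 libraries, with a coefficient of variation of 4.60%. In Asxl1Y588XTg against WT the log2 fold change was −0.00 (SE 0.08, 95% interval −0.18 to 0.18), and no pairwise comparison moved it by more than 0.06. Every pair of genotypes overlapped, in contrast to Thbs1 against WT.

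Tgfb3, a ligand better known from epithelium and mesenchyme, was near the detection limit. WT libraries held 11, 4, and 11 raw counts, Kdm6bΔ/+ libraries 9, 8, and 7, and Asxl1Y588XTg Kdm6bΔ/+ libraries 11, 7, and 18. Asxl1Y588XTg libraries held 36, 28, and 26, above every other library. The log2 fold change in Asxl1Y588XTg was 1.77 (SE 0.53, 95% interval 0.60 to 2.94) against WT, and the edgeR adjusted p was 0.190. In Asxl1Y588XTg Kdm6bΔ/+ against Asxl1Y588XTg cells it was −1.43 (SE 0.42, −2.34 to −0.51), with an adjusted p of 0.120 in the same test, and without Asxl1Y588XTg Kdm6bΔ/+ replicate 3 it passed, at −1.96 with an adjusted p of 0.0466. With all libraries but no filter on low counts it passed too, at −1.42 with an adjusted p of 0.0218 in edgeR. That fit called 812 genes, against 275 with the filter, and the replicate left out above had the highest double-mutant count, 18. The comparisons of Asxl1Y588XTg with WT and with Asxl1Y588XTg Kdm6bΔ/+ share the Asxl1Y588XTg libraries. Transcripts Gm37804 and Gm48008 overlap exons of Tgfb3 on the other strand, so such small counts may be affected if strand was not used in counting. Tgfb2 had 0 to 13 raw counts in the 12 libraries and was not tested.

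No signalling receptor passed the test in any comparison. Tgfbr1, the type I kinase, had 1043, 1319, and 1182 normalized counts in WT, 1002, 1099.6, and 1186 in Kdm6bΔ/+, 1057, 1095, and 1037 in Asxl1Y588XTg, and 1149, 1064, and 1011 in Asxl1Y588XTg Kdm6bΔ/+ libraries, and every pair of genotypes overlapped. Its log2 fold changes in the pairwise comparisons lay between −0.15 and 0.03. Tgfbr2, the ligand-binding kinase, had 812, 828, and 696 in WT, 706, 735, and 733 in Kdm6bΔ/+, and 842, 792, and 906 in Asxl1Y588XTg Kdm6bΔ/+ libraries. The Asxl1Y588XTg libraries held 1232, 807, and 759.7, so 1 library stood above the rest and the other two overlapped with WT. All 3 Asxl1Y588XTg Kdm6bΔ/+ libraries lay above all 3 Kdm6bΔ/+ libraries, by 0.23 log2 units (SE 0.08), and the edgeR adjusted p was 0.315.

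Tgfbr3, the betaglycan gene, varied most among the receptors. It had 437, 258, and 506 normalized counts in WT, 363, 413, and 311 in Kdm6bΔ/+, 519, 945, and 548 in Asxl1Y588XTg, and 630.0, 386, and 531 in Asxl1Y588XTg Kdm6bΔ/+ libraries. The Asxl1Y588XTg libraries lay just above WT, and replicate 2, the library of that genotype with Y-linked transcripts, was far above the other two. The log2 fold change in Asxl1Y588XTg against WT was 0.74 (SE 0.31, 95% interval 0.02 to 1.46), and the edgeR adjusted p was 0.513. In Asxl1Y588XTg Kdm6bΔ/+ against Kdm6bΔ/+ cells it was 0.51 (SE 0.17, 0.13 to 0.89), with an adjusted p of 0.290 in the same test. Gm43422 overlaps exons of Tgfbr3 on its own strand, so part of these counts is uncertain.

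Compared per exonic length, the 10 genes spanned more than 3 orders of magnitude. Cd47 (147 RPKM ± 11.6, n = 3) and Tgfb1 (64.5 ± 4.69) led in WT cells, followed by Thbs1 (23.5 ± 4.53), Gdf3 (11.5 ± 0.445), Tgfbr1 (10.3 ± 1.2), Tgfbr2 (5.41 ± 0.498), Tgfbr3 (3.48 ± 1.11), Cd36 (1.97 ± 0.430), Tgfb3 (0.147 ± 0.0651), and Tgfb2 (0.0354 ± 0.0307). The ranges of Gdf3 and Tgfbr1 overlapped, as did those of Tgfbr3 and Cd36, while all other neighbours in this order were apart in WT. In each mutant genotype Tgfbr1 held rank 3 in place of Thbs1, which fell to 6.23 ± 2.37 RPKM in Kdm6bΔ/+, 6.50 ± 0.927 in Asxl1Y588XTg, and 7.95 ± 3.61 in Asxl1Y588XTg Kdm6bΔ/+ cells. There its range overlapped with that of Tgfbr2, the next gene down, in all 3 mutants. Gdf3 moved from rank 4 in WT to rank 6 or 7 in the mutants, at 3.55 to 4.68 RPKM. The rank changes restate the low Thbs1 and Gdf3 counts, since the other genes kept their order apart from this pair.

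**Figure D3:**
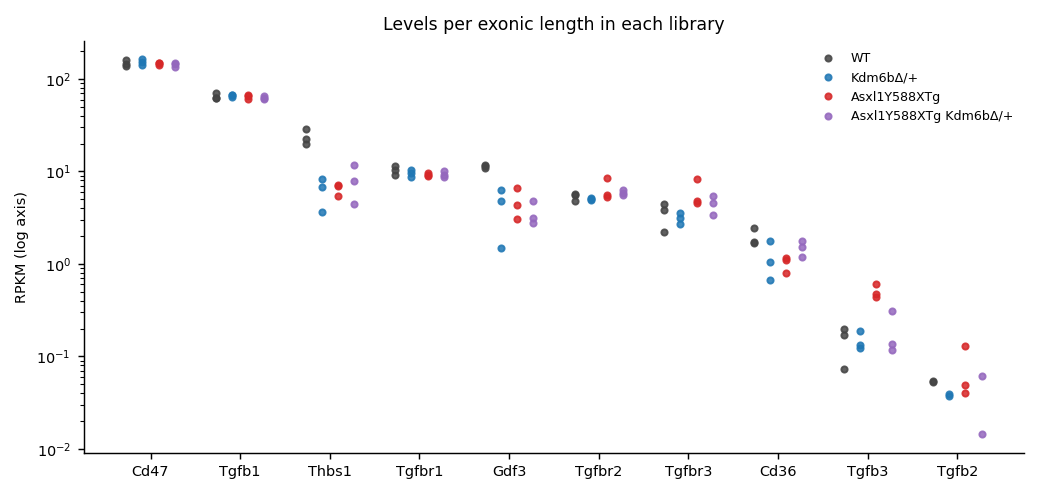
RPKM of the 10 genes (x axis, ordered by their mean) in each library, on a log axis, coloured by genotype, without the libraries in which Tgfb2 had no count. Thbs1 has rank 3 in WT (23.5 RPKM) and 6.23 to 7.95 RPKM in the mutant genotypes, near Tgfbr2.

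In the transgene comparison, Asxl1Y588XTg against WT, 2 of the 9 tested genes were called, Thbs1 and Gdf3, both by choice, against 1.61% of all genes (called: edgeR adjusted p under 0.05 and more than a 1.5-fold change). All 3 Asxl1Y588XTg libraries were below all 3 WT libraries for 3 of the 9 genes (Thbs1, Gdf3, and Cd36), as for 5.21% of all genes, and above them for 2 (Tgfb3 and Tgfbr3), as for 10.5%. Over the 9 genes the log2 fold change had a median of −0.02, beside −0.01 over all genes tested.

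For the Kdm6b deletion alone, 0 of 9 genes were called by edgeR in Kdm6bΔ/+ against WT, where 0.0948% of all genes were called. At an unadjusted p under 0.05 there were 3 (Thbs1, Gdf3, and Cd36), beside 3.49% of all genes, and DESeq2 called 1, Thbs1, a contrast by which Thbs1 was chosen. Kdm6bΔ/+ libraries lay below WT for 2 genes, Thbs1 and Gdf3, as for 4.8% of all genes. With both changes, 1 of 9 was called against WT, Gdf3, against 0.215% of all genes, and DESeq2 called 2, with Thbs1 added. Thbs1 was chosen by this contrast, and Gdf3 by the same WT libraries, so neither count is support. Thbs1 and Gdf3 were again the 2 genes with no overlap below WT, as were 6.87% of all genes.

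Between Asxl1Y588XTg Kdm6bΔ/+ and Asxl1Y588XTg cells, edgeR and DESeq2 each called 0 of 9 (1.74% of all genes by edgeR), and 2 had an unadjusted p under 0.05, Cd36 and Tgfb3, beside 15.4% of all genes. Tgfb3 lay below without overlap, as did 14.1% of all genes, and Cd36 above, as did 7.11%. Between Asxl1Y588XTg Kdm6bΔ/+ and Kdm6bΔ/+ cells, edgeR and DESeq2 again each called 0 of 9 (0.0948% of all genes by edgeR), 2 had an unadjusted p under 0.05, Tgfbr2 and Tgfbr3, beside 12.2% of all genes, and Tgfbr2 lay above without overlap, as did 9.32%. In the interaction of both changes, edgeR called 0 of 9 (0.0126% of all genes), 2 had an unadjusted p under 0.05, Thbs1 and Cd36, beside 6.87% of all genes, and DESeq2 called 1, Thbs1. The choice of Thbs1 fixed its sign there, so its part of these counts is no test.

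**Figure D4:**
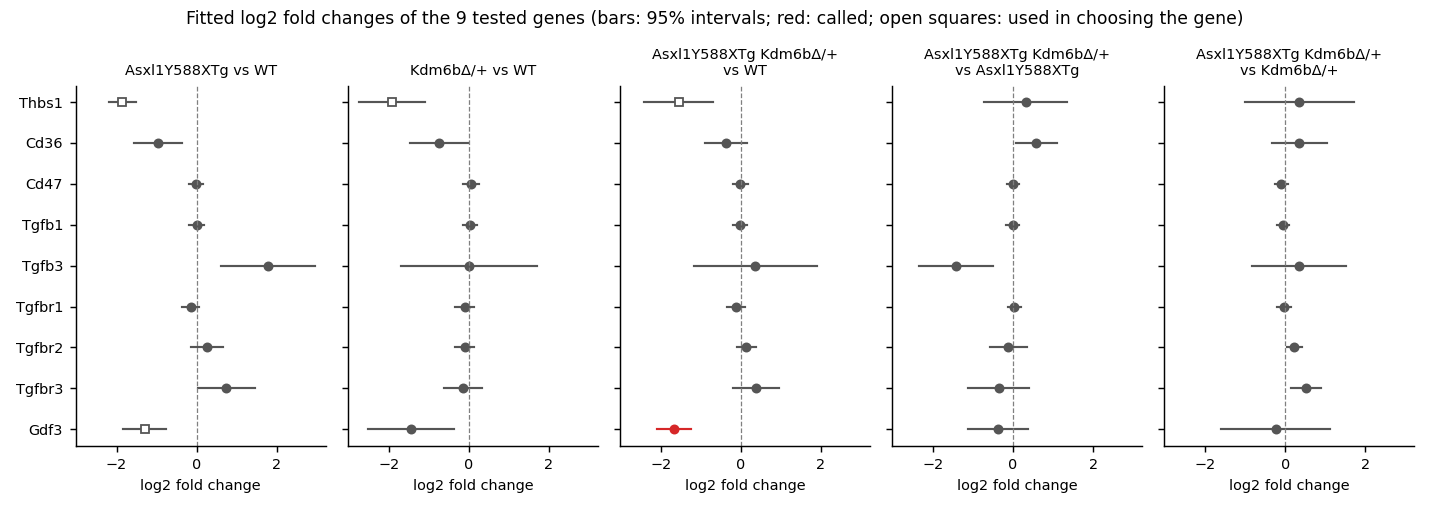
Log2 fold changes (x axis) of the 9 tested genes (y axis) in the 5 pairwise comparisons, with 95% intervals. Open grey squares are values by which the gene was chosen, called or not, and other called values are in red. Thbs1 (−1.86) and Gdf3 (−1.30) are called in Asxl1Y588XTg and Gdf3 (−1.67) in Asxl1Y588XTg Kdm6bΔ/+ cells, all against the WT libraries on which the choice rested.

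Other genes of the pathway were taken from lists written from general knowledge, with earlier results of these data known. Among all genes tested, 250 were called higher and 5 lower in Asxl1Y588XTg against WT. In Asxl1Y588XTg Kdm6bΔ/+ against Asxl1Y588XTg, 23 were called higher and 252 lower. A rise in the first comparison and a fall in the second are thus the directions of most calls. Of 19 thrombospondins and receptors or partners of thrombospondin-1, all tested, Itga3, an integrin chain that binds thrombospondin-1 and laminins, rose in Asxl1Y588XTg against WT, from 3.12 ± 1.94 to 46.7 ± 13.02 normalized counts (log2 fold change 3.86, SE 0.57, edgeR adjusted p = 0.00899). Thbs1 was the other call, where 1.61% of all genes were called. Itga3 fell again in Asxl1Y588XTg Kdm6bΔ/+ against Asxl1Y588XTg, to 12.2 ± 4.83 normalized counts. The most abundant of the list per length was Calr, a chaperone that is also a surface partner of thrombospondin-1, at 635 RPKM, with no call in any comparison. The median log2 fold change of this list in Asxl1Y588XTg against WT was 0.01. At an unadjusted p under 0.05 in edgeR, 3 were higher and 3 lower there. In Kdm6bΔ/+ against WT 1 was higher and 5 lower, and in Asxl1Y588XTg Kdm6bΔ/+ 4 were higher and 1 lower. The shares over all genes were 9.35%, 3.49%, and 6.79%. Thbs1, chosen by these contrasts, is among the lower genes each time. Between Asxl1Y588XTg Kdm6bΔ/+ and Kdm6bΔ/+ cells, 6 were higher and 1 lower, beside 12.2%, with a median of 0.35.

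Of 29 genes that store or activate latent TGF-β, 25 were tested, and 2 rose in Asxl1Y588XTg against WT while 0 fell. Among all genes tested, 1.61% were called there, most of them higher. Ltbp3, which tethers latent TGF-β to the matrix, went from 185 ± 34.2 to 418 ± 65.7 normalized counts (log2 fold change 1.17, SE 0.18, edgeR adjusted p = 0.0123). In Asxl1Y588XTg Kdm6bΔ/+ cells it was at 207 ± 38.6, and it fell against Asxl1Y588XTg, with a log2 fold change of −0.998 (edgeR adjusted p = 0.0161). Bgn, a matrix proteoglycan that binds TGF-β, rose in Asxl1Y588XTg cells from 56.4 ± 17.8 to 199.6 ± 41.3 and was at 169 ± 83.4 in Asxl1Y588XTg Kdm6bΔ/+ cells, where it was not called. Adamts1, a secreted protease, fell in Asxl1Y588XTg Kdm6bΔ/+ against Asxl1Y588XTg from 48.1 ± 5.04 to 13.05 ± 6.32. No gene of the list was called in Kdm6bΔ/+ or Asxl1Y588XTg Kdm6bΔ/+ against WT. At an unadjusted p under 0.05 there were 7 of the 25 in Asxl1Y588XTg (all higher), 1 in Kdm6bΔ/+, and 6 in Asxl1Y588XTg Kdm6bΔ/+ against WT, beside 9.35%, 3.49%, and 6.79% of all genes. Of 14 stem and progenitor markers, 7 rose in Asxl1Y588XTg against WT (median log2 fold change 0.99), and 5 fell in Asxl1Y588XTg Kdm6bΔ/+ against Asxl1Y588XTg (median −0.99). Of all genes, 1.61% and 1.74% were called in these comparisons, mostly in the same directions. Ltbp3 and Itga3 rose and fell in the same comparisons. The part of these cells in the values was not tested. The most abundant per length were the protease Mmp9, at 203 RPKM, and the integrin chain Itgb1, at 68.9 RPKM, neither called.

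Of 30 TGF-β receptor and Smad pathway genes, all tested, 1 rose in Asxl1Y588XTg against WT, beside 1.61% of all genes called. This was Zfyve9, also called SARA, which anchors Smad2 and Smad3 to the receptor, at 21.6 ± 4.03 normalized counts in WT and 92.7 ± 28.4 in Asxl1Y588XTg cells. It fell to 36.9 ± 6.54 in Asxl1Y588XTg Kdm6bΔ/+ cells. None of the 30 was called in Kdm6bΔ/+ or Asxl1Y588XTg Kdm6bΔ/+ against WT. At an unadjusted p under 0.05 in edgeR there were 2 (both lower) and 0, beside 3.49% and 6.79% of all genes. Strap, an inhibitor of the receptor, at 57.5 RPKM, and Eng, a co-receptor, at 16.02 RPKM, were the most abundant and were not called.

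Of 30 genes known to respond to TGF-β, 26 were tested. In Asxl1Y588XTg against WT, Ccn1, a secreted matrix protein, rose from 2.10 ± 1.15 to 42.7 ± 10.2 normalized counts, and the cell cycle inhibitor Cdkn1c rose from 11.9 ± 2.04 to 62.8 ± 15.5. Thbs1 is itself on this list and was the 1 gene called lower, where 1.61% of all genes were called. Ccn1 fell in Asxl1Y588XTg Kdm6bΔ/+ against Asxl1Y588XTg to 12.5 ± 3.62. For the 26 genes the median log2 fold change was 0.15 in Asxl1Y588XTg, −0.05 in Kdm6bΔ/+, and 0.04 in Asxl1Y588XTg Kdm6bΔ/+ against WT, beside −0.01, −0.00, and −0.00 for all genes. At an unadjusted p under 0.05 in edgeR, 4 were higher and 1 lower, 1 higher and 3 lower, and 4 higher and 2 lower in these comparisons. The shares over all genes were 9.35%, 3.49%, and 6.79%. Thbs1, chosen by these contrasts, is among the lower genes in each.

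**Figure D5:**
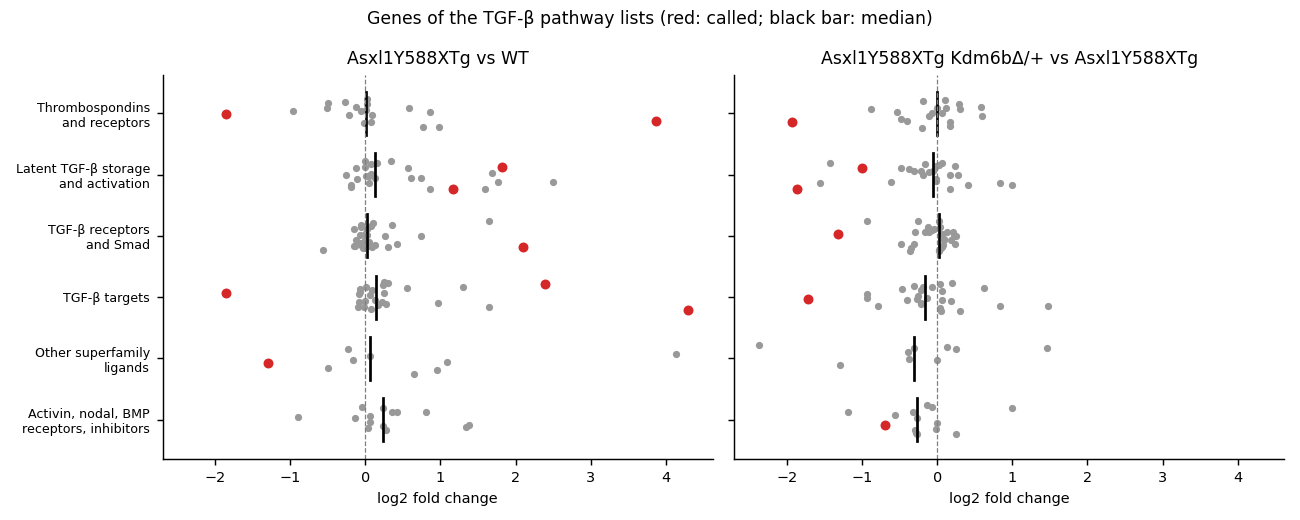
Log2 fold changes (x axis) of the tested genes of 6 lists (y axis, points shifted at random within a list) in Asxl1Y588XTg against WT and in Asxl1Y588XTg Kdm6bΔ/+ against Asxl1Y588XTg, with called genes in red and list medians as black bars. In the first panel the calls on the left are Thbs1 (−1.86, on 2 lists) and Gdf3 (−1.30), and most other calls rose in Asxl1Y588XTg cells.

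Most of the family of Gdf3 was at or near 0. Of 30 other TGF-β superfamily ligands, Gdf3 included, 9 passed the filter, and 23 had a mean raw count under 10. Gdf3 was the 1 gene of the 9 called in Asxl1Y588XTg and in Asxl1Y588XTg Kdm6bΔ/+ against WT, beside 1.61% and 0.215% of all genes. Inhba, the activin A subunit, was the most abundant, at 13.5 RPKM, followed by Gdf3 at 5.98. Inhba had 1541 ± 383 normalized counts in WT and 1320.1 ± 92.1 in Asxl1Y588XTg cells and was not called. Of 23 receptors and inhibitors of activin, nodal, and BMP ligands, 14 were tested and 0 were called in any mutant against WT by edgeR. At an unadjusted p under 0.05, 3 were higher in Asxl1Y588XTg, 1 was lower in Kdm6bΔ/+, and 1 was lower in Asxl1Y588XTg Kdm6bΔ/+ cells. The shares over all genes were 9.35%, 3.49%, and 6.79%. Bmpr1a, a BMP type I receptor, fell in Asxl1Y588XTg Kdm6bΔ/+ against Asxl1Y588XTg from 918 ± 37.3 to 561 ± 88.4, and in Kdm6bΔ/+ cells it was at 517 ± 82.6. Among the receptors through which Gdf3 could act, Acvr1b was the most abundant per length, at 9.43 RPKM.

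Thbs1 is also known to respond rapidly to stimuli, so 26 immediate early genes were followed. Their summed normalized counts were 43747 to 75883 in WT, 35681 to 50612 in Kdm6bΔ/+, 60931 to 96246 in Asxl1Y588XTg, and 40585 to 62899 in Asxl1Y588XTg Kdm6bΔ/+ libraries, and WT overlapped with each mutant. In Asxl1Y588XTg against WT, 2 of the 26, Ccn1 and Egr3, rose and 0 fell, beside 1.61% of all genes called, most of them higher. There, 1 of 26 log2 fold changes was below 0. In Kdm6bΔ/+ against WT 24 of 26 were below 0, and in Asxl1Y588XTg Kdm6bΔ/+ 18 of 26, with 0 called by edgeR in either. At an unadjusted p under 0.05 in edgeR, 9 were higher and 0 lower in Asxl1Y588XTg against WT. In Kdm6bΔ/+ 0 were higher and 8 lower, and in Asxl1Y588XTg Kdm6bΔ/+ 1 was higher and 0 lower. The shares over all genes were 9.35%, 3.49%, and 6.79%. The median log2 fold changes of the 26 were 0.40, −0.44, and −0.16, while Thbs1 was low in all 3 genotypes. The part of these genes in the Thbs1 values was not tested. Of 20 interferon-responsive genes, which the inducer of Mx1Cre can raise, 1 was called in Kdm6bΔ/+ and in Asxl1Y588XTg Kdm6bΔ/+ against WT, beside 0.0948% and 0.215% of all genes. This was Xaf1, which rose by 2.15 and 1.86 on the log2 scale. The list medians were 0.42 in Asxl1Y588XTg, 0.09 in Kdm6bΔ/+, and −0.15 in Asxl1Y588XTg Kdm6bΔ/+ against WT, with 2, 7, and 15 of 20 below 0. At an unadjusted p under 0.05 in edgeR, 5 were higher and 0 lower, 1 higher and 0 lower, and 2 higher and 5 lower. The part of pI:pC was not tested.

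The genes whose levels followed that of Thbs1 most closely across the 12 libraries were Fgd6 (Pearson's r 0.86, Spearman's rho 0.84), Nek8 (0.84 and 0.88), Endov (0.83 and 0.78), Sik2 (0.82 and 0.83), and Lig4 (0.80 and 0.78), of 9892 genes compared on the log2 scale. These values describe points that share libraries, scaling, and the gap between WT and mutants. Within genotypes, r was 0.80 for Fgd6 and 0.70 for Sik2, a salt-inducible kinase, against 0.36 for the DNA ligase gene Lig4. Fgd6 had a mean of 262 normalized counts in WT and 148 to 185 in the mutant genotypes. The most opposed were Spryd3 (r −0.84), Gpkow (−0.82), and Crcp (−0.82). For Gdf3, the closest of 15824 genes were Ranbp6 (r 0.92), Cdh24 (0.90), Cbfa2t2 (0.89), Zfp160 (0.89), and Gm15344 (0.88), with r of 0.72 to 0.86 within genotypes. For Thbs1 and Gdf3 alike, r within genotypes comes from the libraries by which the closest genes were picked, so it is no separate support. No other gene of the 10 was among the closest 5 for either.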

How the data were processed

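LK cells were purified with beads from individual mice and their RNA was sequenced as 50 bp reads, 1 library per mouse. The library kit differs between the sources (NEB Ultra RNA in the labels, stranded KAPA RiboErase in the study's methods). The authors trimmed reads, aligned them to mm10 with STAR, and deposited raw HTSeq counts per gene. Annotation and strand of the counting are not given in the sources used here. Genes with low counts were removed with filterByExpr over the 4 genotypes, keeping 15825. edgeR 4.0.16 (R 4.3.3) fitted the 6 libraries of each comparison, or all 12 for the interaction, with TMM scaling, robust quasi-likelihood, and Benjamini-Hochberg adjustment over all genes tested. A gene was called at an adjusted p under 0.05 and above 1.5-fold. Standard errors were derived from the F statistic. For normalized counts, each count was scaled from its library's effective size to the mean library size. RPKM used exonic lengths of GENCODE vM21, the source of positions, and effective library sizes. DESeq2 1.42.0 and other settings were alternatives. The fits were tested on simulated counts.

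The 10 genes and all lists were chosen with earlier results of these data known. Genes named are the 10, the deleted gene and the transgene's gene, Xist and Ddx3y, called genes of each list (at most 4, by fold change) and its 2 most abundant per length, and the 5 genes most like Thbs1 (mean of at least 100 normalized counts; also the 3 most opposed) and Gdf3. Of the marker lists named here, neutrophils (17 genes), T and NK cells (12), B cells (10), and mast cells and basophils (11) had 0 calls in any comparison, erythroid cells (16) had 3 lower and endothelial and stromal cells (17) 1 higher as their most calls in a mutant against WT, and progenitors (14) had 7 higher in Asxl1Y588XTg. Of all genes, 1.61% were called in Asxl1Y588XTg, 0.0948% in Kdm6bΔ/+, and 0.215% in Asxl1Y588XTg Kdm6bΔ/+ against WT. Precision is limited by 3 mice per genotype. Replicate numbers did not pair the samples (median correlation of same-numbered deviations −0.04).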

Additional observations from a re-analysis of the deposited data

How the results depend on the processing

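Of the recomputed counts of called genes, 66 stayed within 1.5 times the reported count and 17 did not. Of the recomputed fold changes, 692 were counted as unchanged, 44 changed sign, 3 lost the call, and 2 gained it. For the contrasts by which Thbs1 and Gdf3 were chosen, and their interactions, unchanged meant a shift under 1 within-genotype SD. Calls lost or gained there are not in the 3 and 2. All other fold changes counted as unchanged kept their direction and side of the threshold. In Asxl1Y588XTg against WT, the fit of all 4 genotypes called 1 of the 9 genes, the fit with a term for Y-linked transcripts 0, and fits leaving out 1 library 1 to 2 (Gdf3 was lost without any of the 3 WT libraries and without Asxl1Y588XTg replicate 2). In Kdm6bΔ/+ against WT, DESeq2 called 1, the replicate number as a block 1 (Thbs1, chosen by this contrast), and fits without 1 library 0 to 1 (Thbs1, without Kdm6bΔ/+ replicate 3). Asxl1Y588XTg Kdm6bΔ/+ against WT gave 2 with DESeq2, 0 with all 4 genotypes, 0 with the term for Y-linked transcripts, and 0 to 1 without 1 library (Gdf3 was lost without WT replicate 3). Against Asxl1Y588XTg it gave 1 without an expression filter (Tgfb3) and 0 to 1 without 1 library (Tgfb3, without Asxl1Y588XTg Kdm6bΔ/+ replicate 3), and against Kdm6bΔ/+ 0 throughout. The interaction gave 1 with DESeq2, 2 without a filter, and 0 without 1 library. The causes were not tested. The replicate block changed no other call of these 9 genes, and since the numbers did not pair the samples, samples with 1 number share only the number.

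Fold changes that changed sign were near 0 or had wide intervals. With the term for Y-linked transcripts they were, for Kdm6bΔ/+ against WT, −0.0067 for Cd47, −0.024 for Tgfb1, −0.0013 for Tgfb3 (−0.0016 with all 4 genotypes), and 0.0087 for Tgfbr2. With that term, Cd36 was 0.39 in Asxl1Y588XTg Kdm6bΔ/+ against WT, Tgfbr1 −0.0028 against Asxl1Y588XTg, and Gdf3 0.013 against Kdm6bΔ/+. Tgfb1 was 9.4e-05 in Asxl1Y588XTg against WT with a mean count of at least 50. Cd47 in Asxl1Y588XTg Kdm6bΔ/+ against Asxl1Y588XTg was 0.0074 with DESeq2, 0.0074 with RLE scaling, and 0.00089 without a filter. Leaving out 1 library, Asxl1Y588XTg against WT ranged from −0.060 to 0.050 for Cd47 and −0.034 to 0.056 for Tgfb1. Kdm6bΔ/+ against WT ranged from −0.0011 to 0.089 for Tgfb1, −0.30 to 0.28 for Tgfb3, and −0.37 to 0.067 for Tgfbr3. Asxl1Y588XTg Kdm6bΔ/+ against WT ranged from −0.066 to 0.048 for Cd47, −0.052 to 0.044 for Tgfb1, and −0.19 to 0.62 for Tgfb3. Against Asxl1Y588XTg the ranges were −0.065 to 0.59 for Thbs1, −0.028 to 0.033 for Cd47, −0.051 to 0.022 for Tgfb1, −0.014 to 0.075 for Tgfbr1, and −0.25 to 0.13 for Tgfbr2. Against Kdm6bΔ/+ they were −0.019 to 0.65 for Thbs1, −0.20 to 0.57 for Tgfb3, −0.083 to 0.035 for Tgfbr1, and −0.63 to 0.18 for Gdf3. In the interaction they were −0.17 to 0.22 for Tgfbr2 and −0.44 to 0.097 for Tgfbr3. At 4 to 36 counts per library, changes in Tgfb3 are poorly resolved.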
